A study of Homo sapiens with 9 samples.

Results

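The 10 genes described here encode enzymes that add oxygen to polyunsaturated fatty acids or pass electrons to such oxidation, together with the enzymes that turn arachidonic acid into prostaglandins. They were the lipoxygenase genes ALOX5, ALOX12, ALOX15, ALOX15B and ALOXE3, the electron donor genes POR and CYB5R1, the cyclooxygenase genes PTGS1 and PTGS2, and the prostaglandin E synthase gene PTGES. They were chosen by name, and each matched 1 of the 58735 genes counted. All 9 libraries came from MDA-MB-231, an established human triple-negative breast cancer cell line, so every value belongs to 1 line. Vehicle cells received DMSO, erastin-R cells were those left alive after rising concentrations of erastin, an inhibitor of the cystine/glutamate antiporter, and RSL3-R cells were those left alive after rising concentrations of RSL3, an inhibitor of the lipid hydroperoxide reductase GPX4. Each condition had 3 libraries, and the doses and schedule of the sequenced cells are not given in the labels. The labels do not say whether the 3 libraries of a condition came from separate cultures, so the p-values measure the spread between these libraries, which may be technical.

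Lipoxygenases are iron enzymes that insert oxygen into arachidonic, linoleic and related acids, and their hydroperoxides are the starting point of leukotrienes and lipoxins. In ferroptosis, a form of cell death driven by iron and peroxidised membrane phospholipids, lipoxygenases are 1 proposed source of the peroxides, and the flavoprotein NADPH-cytochrome P450 reductase, with NADH-cytochrome b5 reductase, is another. Cyclooxygenases convert free arachidonic acid into prostaglandin H2, from which prostaglandin E2 is made by the microsomal synthase PTGES, and a raised PTGS2 transcript is widely used as a marker of ferroptosis although its enzyme is not needed for that death.

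Total counts were between 15405102 and 17273464 per library, at which 3 counts correspond to 0.174 to 0.195 CPM. CPM is the count scaled to a common library size, here after TMM (a scaling by edgeR that balances most genes between libraries), and levels are given in it as mean ± SD with n = 3. Where levels of different genes are compared they are divided by the length of the gene's exons, as CPM per kb. Fold changes are on the log2 scale with their standard error (SE), from 1 edgeR quasi-likelihood model of all 9 libraries over 16188 genes, and a gene passed when its Benjamini-Hochberg adjusted p was under 0.05. VIM, a mesenchymal marker of this line, had 20507 to 26549 counts. Of the other markers of the line, CD44 had 3670 to 5263, KRT18 1093 to 3103, KRT8 2243 to 5204 and EGFR 6189 to 11699 counts. KRT18 was lowest in erastin-R libraries, KRT8 was lower in both survivor conditions than in vehicle, and EGFR was highest in RSL3-R libraries. ESR1 and PGR, the hormone receptor genes low in triple-negative cells, had at most 12 and 2 counts, while ERBB2, which encodes HER2, had 927 to 1598. The erastin-R replicate 1 library stood apart from the other erastin-R libraries on the third principal component, with a score of -35.7 against 14.4 and 13.0.

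Counting all 5 lipoxygenase genes, ALOX15 was below 10 counts in every library, and it was the only 1 of them that was. It had 1 count in vehicle replicate 2 and 1 in erastin-R replicate 2 and none in the other libraries, where a count of 0 allows a level of up to 0.174 to 0.193 CPM by counting error. ALOXE3, the epidermal lipoxygenase that isomerises fatty acid hydroperoxides, had 3 to 14 counts and passed 10 counts in 2 RSL3-R libraries. Both fell below the filter on low counts, which leaves 8 of the 10 members tested. ALOX12B, the epidermal 12R-lipoxygenase and no member, had 0 to 3 counts.

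Of these 8, 4 passed as higher in erastin-R than in vehicle cells (ALOX15B, POR, PTGS2 and PTGES) and 0 as lower. In the same edgeR test 54.0% of all genes tested passed, 27.1% as higher and 26.8% as lower. The member counts were the same by DESeq2, by which 4238 of all genes passed as higher and 4203 as lower. They were also the same at an unadjusted p under 0.05, for which the share of all genes is not given. In RSL3-R against vehicle cells 3 passed as higher (ALOX5, PTGS1 and PTGS2) and 3 as lower (ALOX15B, CYB5R1 and PTGES), where 48.7% of all genes passed, 23.8% as higher and 24.9% as lower. Between the survivor conditions, 2 were higher in RSL3-R (ALOX5 and PTGS2) and 3 lower (ALOX15B, POR and PTGES), where 49.2% of all genes passed, 22.3% as higher and 26.9% as lower. With at least a 2-fold difference required as well, PTGS2 alone passed in erastin-R (13.4% of all genes), PTGS2 and ALOX5 passed in RSL3-R (10.1%), and ALOX5, PTGS2 and ALOX15B passed between the survivor conditions (10.3%). The libraries of both conditions did not overlap for 4 members in erastin-R against vehicle (57.9% of all genes), 7 in RSL3-R against vehicle (61.9%) and 5 between the survivor conditions (55.2%). Both comparisons with vehicle use the same 3 vehicle libraries. The median log2 fold change of the tested members was 0.53 in erastin-R and 0.14 in RSL3-R, and that of all genes tested was -0.0042 and 0.0052. The count of RSL3-R members fell from 6 to 3 without vehicle replicate 2 or without RSL3-R replicate 3. Without erastin-R replicate 1 it rose to 9, where ALOXE3 was also tested, kept by the filter through its RSL3-R libraries. That of erastin-R members rose from 4 to 6 without erastin-R replicate 1. The shares of all genes passing without these libraries are not given, so these changes cannot be read as particular to the members.

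**Figure D1:**
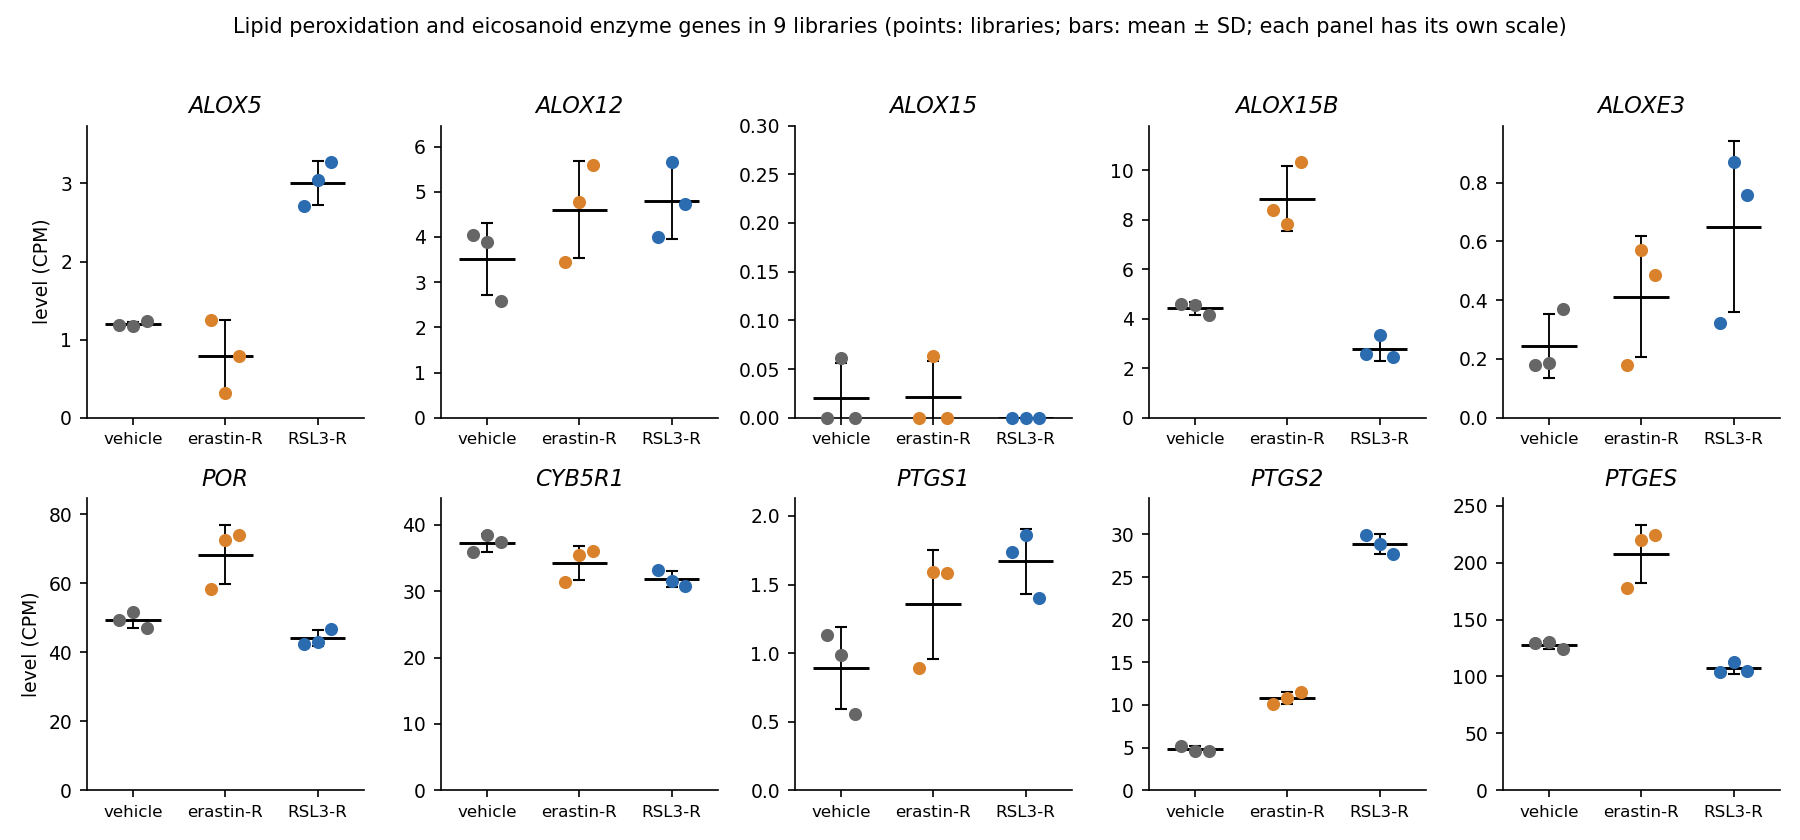
Level of each of the 10 genes in CPM (linear axes from 0, a scale of its own in each panel) in the 9 libraries, grouped as vehicle, erastin-R and RSL3-R, with points for libraries and bars for mean ± SD. PTGS2 rises from 4.79 CPM in vehicle to 10.8 in erastin-R and 28.8 in RSL3-R, while PTGES and ALOX15B are highest in erastin-R and lowest in RSL3-R, and ALOX15 lies at or near 0 throughout.

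PTGS2 and PTGES, adjacent steps of prostaglandin E2 synthesis, both rose in erastin-R cells and differed in opposite directions in RSL3-R cells. The RSL3-R fall of PTGES was 0.25 on the log2 scale, and its call was lost in 5 of 15 settings. The sequences upstream of these genes are shown because of the RSL3-R difference. They are the 250 bases before the RefSeq start on GRCh38.p14, minus strand, read 5′ to 3′, at chr1:186680424-186680673 for PTGS2 and chr9:129753043-129753292 for PTGES. Capitals mark, in PTGS2, a C/EBP pattern (TTNCGCAA), a CRE half-site (TGACG, here read on the other strand as CGTCA) and a TATA box (TATAAA), and in PTGES a pair of GC boxes (GGGCGG).
PTGS2: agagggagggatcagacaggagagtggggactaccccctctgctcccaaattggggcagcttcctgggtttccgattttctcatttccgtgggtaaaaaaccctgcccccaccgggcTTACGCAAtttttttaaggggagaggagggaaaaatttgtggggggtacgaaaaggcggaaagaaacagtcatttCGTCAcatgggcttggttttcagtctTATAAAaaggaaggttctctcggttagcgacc
PTGES: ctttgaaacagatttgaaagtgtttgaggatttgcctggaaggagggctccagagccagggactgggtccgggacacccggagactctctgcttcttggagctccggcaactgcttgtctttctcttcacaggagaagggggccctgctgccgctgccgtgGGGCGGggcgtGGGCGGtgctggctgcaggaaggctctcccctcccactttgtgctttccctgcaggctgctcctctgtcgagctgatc
These patterns were searched on both strands of all 35116 RefSeq promoter windows of 250 bases before to 50 after a start. The PTGS2 TATAAA lies at -32, its TTNCGCAA at -133 and its CGTCA at -58, with another at 24 after the start, and windows holding TATAAA, TTNCGCAA and TGACG make up 11.5%, 0.891% and 24.6% of all windows. The PTGES window has GGGCGG at -89 and -78, a pattern held by 44.95% of windows, and no TATAAA. Of the other patterns searched, CRE (TGACGTCA), E-box (CACGTG), the antioxidant response element (TGACNNNGC) and TGATGNAAN matched in neither of the PTGS2 and PTGES windows, while a loose NF-kB pattern matched in both and in 58.7% of all windows. A match describes letters and shows no binding. A promoter window was found for 5 of the 10 genes, PTGS1, PTGS2, PTGES, ALOX12 and ALOXE3.

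Among the lipoxygenases, ALOX15B and ALOX5 changed and ALOX12 did not pass in any comparison. ALOX15B (ENSG00000179593; GRCh38, chromosome 17, 8039017 to 8049134), which makes 15-hydroperoxides of arachidonic acid, was counted 77, 74 and 67 times in vehicle, 141, 123 and 170 times in erastin-R and 40, 54 and 42 times in RSL3-R libraries. All erastin-R libraries lay above the vehicle libraries and all RSL3-R libraries below them. Its level was 4.43 ± 0.26 CPM in vehicle, 8.85 ± 1.31 in erastin-R and 2.797 ± 0.49 in the RSL3-R cells. The difference from vehicle was a log2 fold change of 0.997 (SE 0.16, adjusted p = 1.5e-04), 1.9965-fold and so just under the 2-fold line, in erastin-R, and -0.66 (SE 0.18, adjusted p = 0.00843) in RSL3-R cells. RSL3-R cells were 3.16-fold lower than erastin-R cells (log2 fold change -1.66, adjusted p = 4.2e-06). Without RSL3-R replicate 3 the RSL3-R difference from vehicle was -0.54 with an adjusted p of 0.0542.

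ALOX5 (ENSG00000012779; chromosome 10, 45374176 to 45446119), the enzyme that starts leukotriene synthesis, had 20, 19 and 20 counts in vehicle, 21, 5 and 13 in erastin-R and 42, 49 and 56 in RSL3-R libraries. The RSL3-R libraries were above all 6 others, and the erastin-R libraries spread across and below the vehicle level. Levels were 1.20 ± 0.031 CPM in vehicle, 0.79 ± 0.47 in erastin-R and 3.01 ± 0.28 in the RSL3-R cells. ALOX5 rose 2.501-fold in RSL3-R against vehicle cells (log2 fold change 1.32, SE 0.32, adjusted p = 0.00337) and 3.77-fold against erastin-R cells (1.91, SE 0.34, adjusted p = 3.5e-04). In erastin-R against vehicle cells its log2 fold change was -0.59 (SE 0.37, adjusted p = 0.198), and without erastin-R replicate 1 it was -1.09 (adjusted p = 0.0243). ALOX5 is best known from leukocytes, whose 7 markers summed to 4.22 to 5.15 CPM in vehicle, 1.49 to 2.59 in erastin-R and 4.56 to 5.80 in RSL3-R libraries. Most of that sum was CD14 (20 to 66 counts), MPO was at 0 in all libraries, and PTPRC, the pan-leukocyte CD45 gene, had 3 to 11 counts in vehicle and erastin-R and 19 to 24 in RSL3-R libraries. The 3 endothelial markers, nearly all of them PECAM1, which leukocytes carry too, summed to 9.51 to 11.01 CPM in vehicle, 1.69 to 2.41 in erastin-R and 11.6 to 14.2 in RSL3-R libraries. The part of these markers in the ALOX5 difference was not tested. In bulk RNA, a change in how many cells express a gene and in how much each cell holds cannot be told apart.

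ALOX12 (ENSG00000108839; chromosome 17, 6996065 to 7010736), the platelet-type 12-lipoxygenase, had 68, 63 and 42 counts in vehicle, 58, 75 and 92 in erastin-R and 62, 91 and 81 in RSL3-R libraries. The 3 ranges overlapped. Its log2 fold change was 0.39 (SE 0.23, adjusted p = 0.164) in erastin-R and 0.45 (SE 0.23, adjusted p = 0.116) in RSL3-R against vehicle cells, and 0.06 (SE 0.22, adjusted p = 0.839) between the survivor conditions. Without erastin-R replicate 1 the first became 0.56 with an adjusted p of 0.0241 and the second stayed at 0.45 with an adjusted p of 0.0497, and the last turned to -0.11. An antisense gene, ALOX12-AS1, covers 491 exonic bases (18.8%) of ALOX12 on the opposite strand and had 53 to 72 counts. Whether the counting used strand is not given in the sources used here, so reads in the shared bases cannot be told apart and the ALOX12 values are uncertain. The 4 platelet markers summed to 0.562 to 1.48 CPM over the 9 libraries, with PPBP and GP9 at 0 in all of them.

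ALOXE3 (ENSG00000179148; chromosome 17, 8095900 to 8119047) had 3, 3 and 6 counts in vehicle, 3, 9 and 8 in erastin-R and 5, 14 and 13 in RSL3-R libraries. The ranges overlapped in both comparisons with vehicle. In a model with no filter on low counts its log2 fold change was 0.72 (SE 0.66, adjusted p = 0.516) in erastin-R and 1.38 (SE 0.63, adjusted p = 0.104) in RSL3-R against vehicle cells. Where the filter kept the gene, the RSL3-R difference passed without erastin-R replicate 1 (adjusted p = 0.0408) or RSL3-R replicate 1 (adjusted p = 0.0288). It did not pass without vehicle replicate 1, 2 or 3 or erastin-R replicate 2 or 3 (adjusted p = 0.0541 to 0.164). The filter kept ALOXE3 in these fits only through the RSL3-R libraries with 14 and 13 counts, so a pass is no independent support. Removing RSL3-R replicate 1 also took out the lowest RSL3-R library. The 4 markers of differentiated keratinocytes, in which ALOXE3 is best known, summed to 18.7 to 29.2 CPM in vehicle, 20.7 to 37.4 in erastin-R and 18.5 to 20.6 in RSL3-R libraries, most of it KRT10, and KRT1 and LOR were at 0 in all 9. ALOX15 (ENSG00000161905; chromosome 17, 4630902 to 4642294), the enzyme most often named in work on ferroptosis, and ALOXE3 lie on the same chromosome as ALOX12 and ALOX15B. ALOXE3 and ALOX15B, 46.8 kb apart, are the closest pair of members. The former was a low transcript in every condition, while the latter had a level per length of 1.46 ± 0.085 CPM per kb in vehicle and 2.92 ± 0.43 in erastin-R cells.

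Summed over the 5 lipoxygenases, the level was 3.20 ± 0.36 CPM per kb in vehicle, 5.01 ± 0.77 in erastin-R and 3.74 ± 0.56 in the RSL3-R cells. The erastin-R libraries (4.48, 4.66 and 5.89) lay above the vehicle libraries (2.78 to 3.43) and above the RSL3-R libraries (3.19 to 4.32), and the vehicle and RSL3-R ranges overlapped. The make-up of that sum differed between conditions as well. ALOX15B made up 44.2 to 49.0% of it in vehicle, 55.4 to 62.0% in erastin-R and 21.9 to 26.7% in RSL3-R libraries. ALOX5 made up 9.31 to 11.9% in vehicle, 1.83 to 7.49% in erastin-R and 18.9 to 23.7% in RSL3-R libraries. ALOX12 made up 35.6 to 45.1%, 29.5 to 39.1% and 47.9 to 50.1%. For ALOX15B and ALOX5 the 3 conditions did not overlap in share. These shares rest on 135 to 283 lipoxygenase counts per library, and with 3 libraries against 3 an exact permutation test cannot go below 0.10, so they are given without a test.

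**Figure D2:**
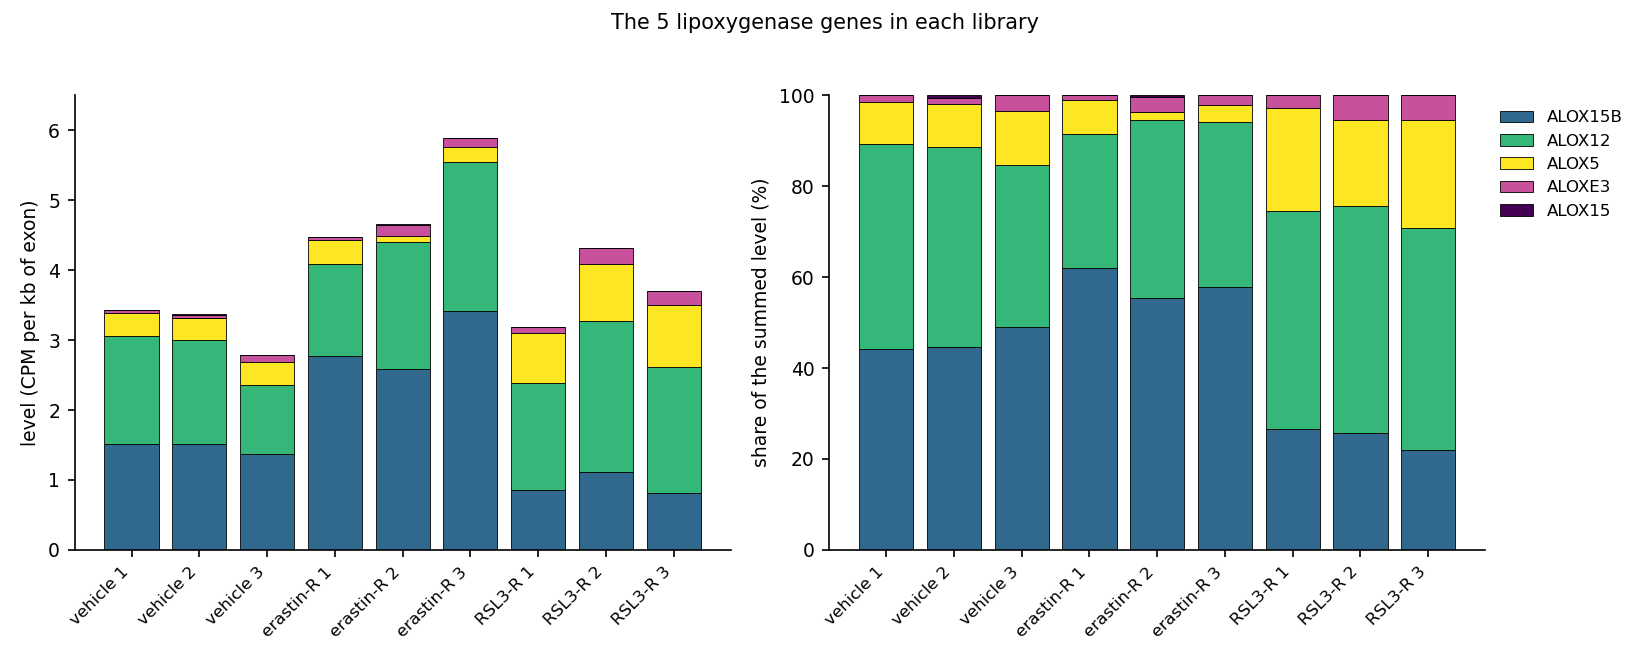
Stacked levels of the 5 lipoxygenase genes in each library in CPM per kb of exon (left) and as a percent of their sum (right). ALOX15B fills 55.4 to 62.0% of the bars of erastin-R libraries and 21.9 to 26.7% of those of RSL3-R libraries, where ALOX12 is the largest part and ALOX5 takes 18.9 to 23.7%.

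The electron donors had higher levels per length than any lipoxygenase in all 3 conditions, and POR rose in erastin-R cells. POR (ENSG00000127948; chromosome 7, 75899200 to 75986855), which hands electrons from NADPH to the microsomal cytochromes P450, had levels of 49.2, 51.7 and 47.1 CPM in vehicle, 58.4, 72.5 and 74.1 in erastin-R and 42.5, 42.9 and 46.7 in RSL3-R libraries. Erastin-R libraries were above all others, with replicate 1 the lowest of them, and RSL3-R libraries were just below the vehicle range. POR rose 1.38-fold in erastin-R cells (log2 fold change 0.47, SE 0.09, adjusted p = 5.6e-04) and was 1.55-fold lower in RSL3-R than in erastin-R cells (-0.63, adjusted p = 6.5e-05). Against vehicle its RSL3-R log2 fold change was -0.16 (SE 0.09, adjusted p = 0.155), and it passed without erastin-R replicate 1 (adjusted p = 0.0246) or with only these 2 conditions in the model (adjusted p = 0.0401).

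CYB5R1 (ENSG00000159348; chromosome 1, 202961869 to 202967280), an NADH-cytochrome b5 reductase, had levels of 35.9, 38.5 and 37.4 CPM in vehicle, 31.3, 35.5 and 36.0 in erastin-R and 33.2, 31.6 and 30.7 in RSL3-R libraries. The RSL3-R libraries were all below the vehicle libraries by a small margin. Its log2 fold change was -0.23 (SE 0.08, adjusted p = 0.0283) in RSL3-R and -0.12 (SE 0.08, adjusted p = 0.208) in erastin-R cells. The RSL3-R call was lost in 10 of 15 alternative settings, among them the removal of vehicle replicate 2 or 3 or of any RSL3-R library, with adjusted p-values between 0.00534 and 0.184 over all 15. In vehicle cells CYB5R1 and POR had similar levels per length, 8.28 ± 0.30 and 8.08 ± 0.37 CPM per kb with overlapping ranges, and in erastin-R cells POR stood above CYB5R1, at 11.2 ± 1.4 against 7.61 ± 0.57.

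PTGS2, the inducible cyclooxygenase, differed most from vehicle of the 8 tested genes in both survivor conditions. PTGS2 (ENSG00000073756; chromosome 1, 186671791 to 186680427) was counted 87, 75 and 74 times in vehicle, 169, 170 and 190 times in erastin-R and 465, 465 and 473 times in RSL3-R libraries. The 3 conditions formed separate steps with little spread inside each. Its level was 4.79 ± 0.34 CPM in vehicle, 10.8 ± 0.74 in erastin-R and 28.8 ± 1.2 in the RSL3-R cells. The rise over vehicle was 2.25-fold in erastin-R (log2 fold change 1.17, SE 0.12, adjusted p = 1.7e-06) and 6.003-fold in RSL3-R cells (2.59, SE 0.11, adjusted p = 4.9e-10), and RSL3-R cells were 2.67-fold above erastin-R cells (1.41, SE 0.10, adjusted p = 1.3e-07). Over the alternatives the erastin-R value stayed between 1.12 and 1.23 and the RSL3-R value between 2.55 and 2.65.

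PTGS1 (ENSG00000095303; chromosome 9, 122370530 to 122395703), the constitutive cyclooxygenase, was a low transcript with 19, 16 and 9 counts in vehicle, 15, 25 and 26 in erastin-R and 27, 30 and 24 in RSL3-R libraries. RSL3-R libraries were above the vehicle range and erastin-R libraries overlapped it. Its log2 fold change was 0.89 (SE 0.34, adjusted p = 0.0426) in RSL3-R and 0.59 (SE 0.35, adjusted p = 0.167) in erastin-R cells. The RSL3-R call was lost in 9 of 15 alternative settings, among them DESeq2, no filter, and the removal of vehicle replicate 2 or 3, erastin-R replicate 3 or RSL3-R replicate 1 or 2, with adjusted p-values of 0.0248 to 0.159 over all 15. Per length, PTGS2 stood 5.03 to 9.04 times above PTGS1 in vehicle, 7.47 to 12.4 times in erastin-R and 17.04 to 21.7 times in RSL3-R libraries. Only the RSL3-R range lay apart from the others.

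PTGES (ENSG00000148344; chromosome 9, 129738331 to 129753047), the microsomal prostaglandin E synthase, was the highest of the 10 genes in every condition. Its levels were 129.1, 130.4 and 124.0 CPM in vehicle, 178.1, 219.7 and 224.7 in erastin-R and 103.5, 113.1 and 104.9 in RSL3-R libraries. No 2 conditions overlapped, with erastin-R replicate 1 the lowest of its group, as for POR. PTGES rose 1.62-fold in erastin-R cells (log2 fold change 0.70, SE 0.08, adjusted p = 7.0e-06) and was 1.94-fold lower in RSL3-R than in erastin-R cells (-0.95, SE 0.08, adjusted p = 7.1e-07). In RSL3-R against vehicle cells it fell by 0.25 on the log2 scale (SE 0.08, adjusted p = 0.0190), a call lost in 5 of 15 settings, namely quantile normalization and the removal of vehicle replicate 1 or 2 or RSL3-R replicate 1 or 3, with adjusted p-values of up to 0.131. The ratio of PTGES to PTGS2 per length was 69.2 to 78.3 in vehicle, 49.2 to 56.4 in erastin-R and 9.60 to 10.9 in RSL3-R libraries. That ratio did not overlap between any 2 conditions, and its numerator and denominator both differed.

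**Figure D3:**
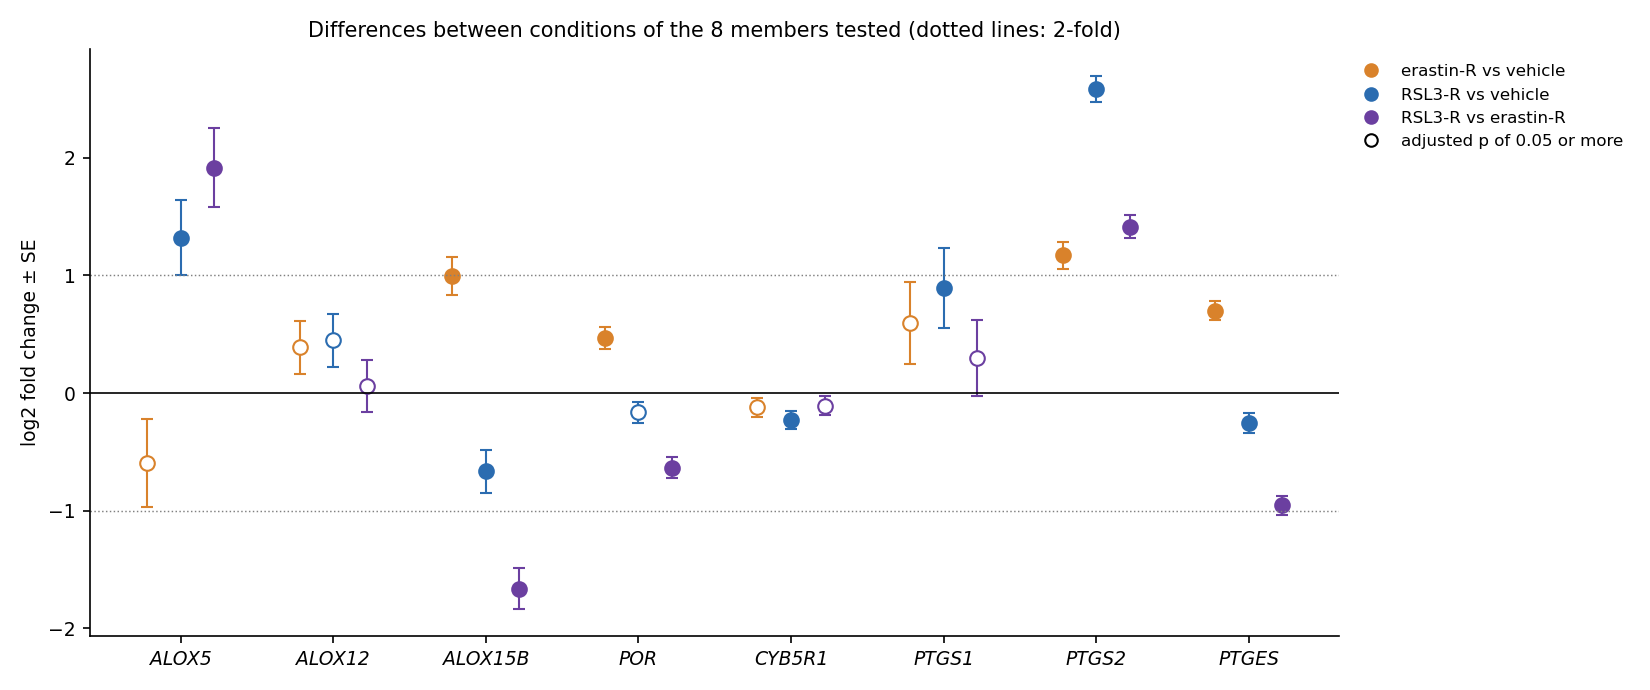
Log2 fold change ± SE of the 8 tested genes in the 3 comparisons, with filled points where the adjusted p was under 0.05 and dotted lines at 2-fold. PTGS2 is above 0 in all 3 comparisons (1.17, 2.59 and 1.41), while ALOX15B and PTGES are above 0 in erastin-R (0.997 and 0.70) and below it in RSL3-R cells (-0.66 and -0.25).

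The order of the genes by level per length changed between conditions. In vehicle cells it ran from PTGES (67.4 ± 1.8 CPM per kb) through CYB5R1 and POR, ALOX15B and ALOX12 (1.46 ± 0.085 and 1.34 ± 0.31), PTGS2 (0.910 ± 0.065), ALOX5 (0.322 ± 0.0083), PTGS1 and ALOXE3 to ALOX15. The neighbours CYB5R1 and POR, ALOX15B and ALOX12, and PTGS1 and ALOXE3 overlapped. In erastin-R cells ALOX15B (2.92 ± 0.43) stood above PTGS2 (2.05 ± 0.14), which overlapped ALOX12 (1.76 ± 0.41), and PTGS1, ALOX5 and ALOXE3 followed as an overlapping run. In RSL3-R cells PTGS2 (5.47 ± 0.22) stood next below CYB5R1 (7.07 ± 0.28), and ALOX15B (0.924 ± 0.161) fell into the range of ALOX5 (0.807 ± 0.076).

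The genes whose log2 CPM pattern over the 9 libraries was most alike were named by Pearson's r among 12969 protein-coding genes. Patterns were compared for 1 lipoxygenase, 1 electron donor and 1 prostanoid enzyme. Each was the member of its group with the smallest p of the edgeR test over the 3 conditions. Members with clear steps between conditions were thus picked from these same data. The 9 points are 3 conditions of 3 libraries, so any gene with the same 3 steps scores high and r describes only that. The nearest to ALOX15B were MOXD1 (0.990), AIFM2 (0.990), which encodes the ferroptosis suppressor FSP1, and CD24 (0.983). The nearest to POR were PLIN3 (0.994), NENF (0.992) and NSMF (0.991), and the nearest to PTGS2 were RBCK1 (0.997), TNFRSF10B (0.995), which encodes a TRAIL death receptor, and PABPC1L (0.995).

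Around these enzymes, 75 further genes of the pathway were listed by role, of which 53 were tested. In erastin-R cells 12 passed as higher and 18 as lower, in RSL3-R cells 14 and 22, and between the survivor conditions 9 and 20, against the shares of all genes given above. The counts of each list below stand against the same shares. Of all genes tested, 54.0% passed in erastin-R (27.1% higher, 26.8% lower) and 48.7% in RSL3-R cells (23.8% higher, 24.9% lower). A list count near these shares is no result about that list. With a 2-fold difference required, 5, 9 and 5 passed, where 13.4%, 10.1% and 10.3% of all genes tested did. The median log2 fold change of the 53 genes was -0.06 in erastin-R, -0.05 in RSL3-R and -0.13 between them.

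Upstream, of 12 tested genes of arachidonate release and activation 4 rose and 2 fell in erastin-R and 4 rose and 3 fell in RSL3-R cells. PLA2G4C, a calcium-independent cytosolic phospholipase A2, had levels of 1.49, 2.04 and 1.30 CPM in vehicle, 0.655, 1.15 and 1.09 in erastin-R and 5.03, 6.59 and 6.55 in RSL3-R libraries. The RSL3-R libraries stood well above the rest, a rise of 3.76-fold (log2 fold change 1.91, SE 0.23, adjusted p = 1.4e-05). Its erastin-R value of -0.74 (adjusted p = 0.0474) lost its call in 10 of 15 settings, including the removal of vehicle replicate 1 or 2, erastin-R replicate 1 or 3 or any RSL3-R library, with adjusted p-values of up to 0.191. PLA2G4A, the main stimulus-activated phospholipase A2, did not pass (0.20 and 0.16, adjusted p = 0.366 and 0.493). MGLL, which frees arachidonate from monoacylglycerol, rose by 0.72 and 0.59, and PLA2G6, another calcium-independent phospholipase, by 0.63 and 0.53 on the log2 scale in erastin-R and RSL3-R cells. ACSL4, which activates arachidonate for membrane insertion, rose by 0.31 in RSL3-R cells (adjusted p = 0.00244), and its erastin-R value of 0.15 (adjusted p = 0.101) passed without vehicle replicate 3 or erastin-R replicate 3 (0.0376 in both). LPCAT3, which esterifies arachidonate into phospholipids, fell by 0.42 in erastin-R and 0.48 in the RSL3-R cells, although 65.6% of its exonic bases overlap EMG1 on the other strand and the erastin-R call was lost without vehicle replicate 3 (adjusted p = 0.0531) or erastin-R replicate 3 (0.0501). PLA2G15, a lysosomal phospholipase, had -0.40 in RSL3-R cells (adjusted p = 0.0151), lost without vehicle replicate 1 or 2 or RSL3-R replicate 3 (0.0503, 0.0529 and 0.121).

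Of 6 tested partners and leukotriene enzymes, 0 passed in erastin-R cells by edgeR or DESeq2, or at an unadjusted p under 0.05. The DESeq2 counts of all genes are given above, and the share of all genes at an unadjusted p is not given. In RSL3-R cells 1 rose and 3 fell. ALOX5AP, the membrane protein that presents arachidonate to ALOX5, had 5, 6 and 8 counts in vehicle, 5, 3 and 1 in erastin-R and 24, 35 and 20 in RSL3-R libraries. It was high in all 3 RSL3-R libraries, as ALOX5 was, with a log2 fold change of 2.05 (SE 0.42, adjusted p = 0.00118) against vehicle, and -1.04 (SE 0.60, adjusted p = 0.158) in erastin-R cells. ALOX5AP passed the filter on low counts only through the RSL3-R libraries, so its RSL3-R p-value is no independent support. Like ALOX5 it is best known from leukocytes, with the marker values given above, and their part was not tested. DPEP1, a dipeptidase that converts leukotriene D4, fell by 2.34 in RSL3-R cells (adjusted p = 3.9e-04), from 1.49 ± 0.21 CPM to 0.129, 0.186 and 0.526 CPM in the RSL3-R libraries (-3.13 without RSL3-R replicate 3), and was 0.16 (adjusted p = 0.703) in erastin-R cells. PEBP1, a scaffold protein that binds ALOX15 and steers it to phospholipids, fell by 0.57 in RSL3-R cells (adjusted p = 6.2e-06) and was -0.02 (adjusted p = 0.808) in erastin-R cells.

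Below the cyclooxygenases, of 7 tested prostanoid synthases 2 rose (AKR1B1 and AKR1C3) and 4 fell in each comparison with vehicle. PTGES3, PRXL2B and CBR1 fell in both, TBXAS1 in erastin-R and PTGES2 in RSL3-R cells. AKR1B1, an aldose reductase with prostaglandin F synthase activity, rose 2.02-fold in erastin-R cells (log2 fold change 1.01, SE 0.10), and its RSL3-R value of 0.26 (adjusted p = 0.0392) was lost without any 1 vehicle library or without RSL3-R replicate 1 or 2 (adjusted p = 0.0695 to 0.110). AKR1C3, a prostaglandin F synthase with near-identical paralogs, rose by 0.96 and 0.70. Only uniquely mapped reads were counted, so reads it shares with those paralogs may be missing from its level. PRXL2B, another prostaglandin F synthase, fell by 0.77 and 0.82. PTGES3, the cytosolic prostaglandin E synthase and HSP90 cochaperone, fell by 0.29 in erastin-R and 0.56 in the RSL3-R cells. PTGES2, the membrane-associated type, had 0.03 (adjusted p = 0.848) in erastin-R and -0.35 (adjusted p = 0.0204) in RSL3-R cells, a call lost without vehicle replicate 1 or RSL3-R replicate 1 or 3 (adjusted p = 0.0939, 0.147 and 0.0944). TBXAS1, the thromboxane synthase, fell by 0.62 in erastin-R cells and was -0.05 (adjusted p = 0.746) in RSL3-R cells.

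Of 6 tested genes of prostaglandin breakdown and uptake, 2 rose and 3 fell in erastin-R and 2 rose and 4 fell in RSL3-R cells. SLCO2A1, the transporter that takes prostaglandins up for breakdown, had levels of 5.19, 4.32 and 4.997 CPM in vehicle, 0.596, 0.509 and 0.790 in erastin-R and 1.29, 1.18 and 1.34 in RSL3-R libraries. Both survivor conditions were far below vehicle, by 7.56-fold (log2 fold change -2.92, SE 0.24) and 3.78-fold (-1.92, SE 0.21). HPGD, the dehydrogenase that inactivates prostaglandin E2, went from 2.38 ± 0.47 CPM in vehicle to 1.001 ± 0.20 in erastin-R and 0.79 ± 0.24 in the RSL3-R cells (log2 fold change -1.24 and -1.56, adjusted p = 0.00315 and 8.9e-04). CBR3, a carbonyl reductase, fell by 0.99 and 1.63, with 42.2% of its exonic bases shared with the antisense gene CBR3-AS1. PTGR1, a reductase of prostaglandins and of the peroxidation product 4-hydroxynonenal, rose by 0.99 and 0.46, and PTGR2 by 0.66 in erastin-R cells. The PTGR2 value of 0.46 in RSL3-R cells (adjusted p = 0.0313) was lost without vehicle replicate 1 or 2 or RSL3-R replicate 1 or 2 (adjusted p = 0.0866 to 0.120).

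Of 15 eicosanoid receptor genes 6 were tested, of which 1 rose and 3 fell in erastin-R and 2 rose and 3 fell in RSL3-R cells. The prostaglandin E2 receptor gene PTGER2 fell from 2.501 ± 0.22 CPM to 1.19 ± 0.21 in erastin-R and 0.89 ± 0.17 in the RSL3-R cells (log2 fold change -1.07 and -1.49, adjusted p = 0.00326 and 4.5e-04). PTGER4, the other prostaglandin E2 receptor that signals through cyclic AMP, fell by 0.88 and 0.43, and the latter call was lost without RSL3-R replicate 1 (adjusted p = 0.0526). TBXA2R, the thromboxane receptor, fell by 1.67 in RSL3-R cells, and its erastin-R value of -0.75 (adjusted p = 0.0462) was lost in 12 of 15 settings, including without any 1 vehicle or RSL3-R library or erastin-R replicate 1 or 2 (adjusted p up to 0.148). LTB4R, a leukotriene B4 receptor, rose by 0.32 and 0.44. The overlapping LTB4R2 had 0.31 (adjusted p = 0.0738), which passed without vehicle replicate 2 or erastin-R replicate 1 (0.0470 and 0.00964), and 0.38 (adjusted p = 0.0366), which was lost without vehicle replicate 1 or 3 or RSL3-R replicate 2 or 3 (0.05002 to 0.171).

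The last list holds cytochromes b5, other flavoprotein reductases of the CYB5R and POR kind, oxidases that take electrons from POR and epoxide hydrolases, of which 3 rose and 6 fell of 16 in erastin-R and 3 rose and 5 fell in RSL3-R cells. HMOX1, the heme oxygenase that POR supplies, had levels of 9.48, 8.71 and 8.08 CPM in vehicle, 25.3, 24.3 and 26.6 in erastin-R and 10.8, 13.3 and 12.9 in RSL3-R libraries. Erastin-R libraries were far above the rest, a rise of 2.90-fold (log2 fold change 1.53, SE 0.11, adjusted p = 9.4e-08) against 1.41-fold (0.49, adjusted p = 0.00314) in RSL3-R cells. CYP1B1, a cytochrome P450 of steroids and fatty acids, rose by 0.88 and 0.39. CYB5B, the outer mitochondrial cytochrome b5, fell from 106.6 ± 0.80 CPM to 54.0 ± 5.0 in erastin-R and 56.1 ± 1.8 in the RSL3-R cells. AC026464.2, with 0 counts in every library, overlaps 35.1% of the CYB5B exonic bases on the same strand. CYP4V2, a fatty acid omega-hydroxylase, fell by 0.39 in erastin-R and rose by 0.83 in RSL3-R cells, and differed 2.33-fold between them (adjusted p = 1.5e-08). CYB5R3, the major cytochrome b5 reductase, was -0.06 (adjusted p = 0.481) in erastin-R and fell by 0.37 in RSL3-R cells. CYP51A1, of sterol synthesis, fell by 0.69 in erastin-R cells, and its RSL3-R value of -0.37 (adjusted p = 0.0839) passed without erastin-R replicate 1 or RSL3-R replicate 2 (0.0201 and 0.0347), with no filter (0.0482) and with only these 2 conditions (0.0263). AC000120.2, with 0 to 1 counts, overlaps 79.4% of the CYP51A1 exonic bases on the same strand. What such overlaps do to the CYP51A1 and CYB5B counts was not tested. CYP2S1 had -0.77 (adjusted p = 0.0696) in erastin-R, which passed without erastin-R replicate 3 (0.0314), and -1.31 (adjusted p = 0.00819) in RSL3-R cells, which was lost without RSL3-R replicate 3 (0.0513).

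**Figure D4:**
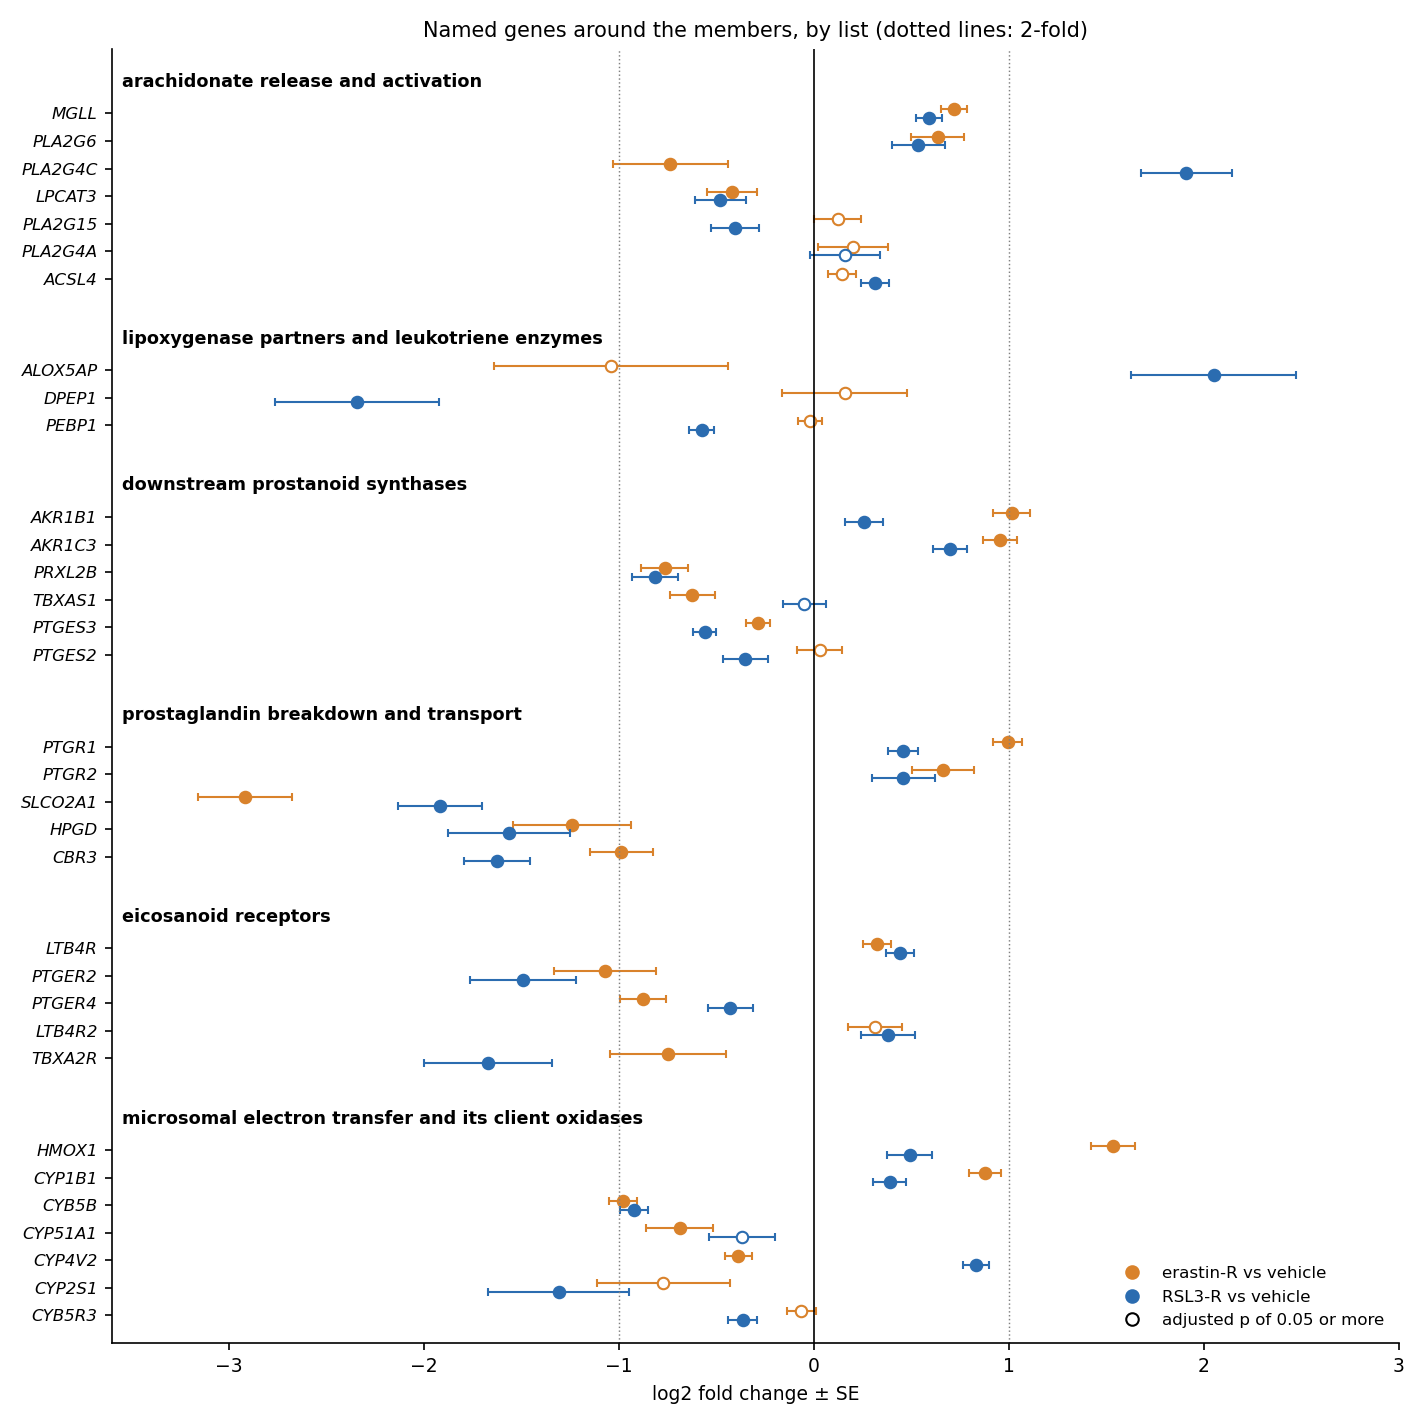
Log2 fold change ± SE against vehicle of the 33 named genes around the enzymes, by list, in erastin-R and RSL3-R cells, with filled points where the adjusted p was under 0.05. SLCO2A1 (-2.92 and -1.92), HPGD (-1.24 and -1.56) and PTGER2 (-1.07 and -1.49) lie below -1 in both, PLA2G4C and ALOX5AP lie at 1.91 and 2.05 in RSL3-R cells, and HMOX1 lies at 1.53 in erastin-R cells.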

How the data were processed

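RNA was measured in 9 poly(A)-selected libraries of MDA-MB-231 cells, 3 per condition, grouped by the treatment label. The authors deposited raw counts per gene, made from uniquely mapped reads in exons, and FPKM values computed from them by the authors. The submitters' processing notes name HISAT2 2.0.5 and featureCounts 1.5.0-p3. Whether counting used strand is not given in the sources used here. All 58735 genes have the coordinates of GENCODE 29 (GRCh38). FPKM values were only checked against the counts and used in no test.

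The main test was the edgeR 4.0.16 quasi-likelihood test under R 4.3.3, with TMM scaling, filterByExpr at a minimum count of 10 and 1 model of all 9 libraries without covariates, and p-values were adjusted by Benjamini-Hochberg over the 16188 genes tested. The test was tried on simulated data. Totals were 15405102 to 17273464 per library, and the common dispersion corresponds to a coefficient of variation of 8.56%. The detection limit was taken as 3 counts, which covers counting error only. Within conditions, log2 CPM values correlated at 0.986 to 0.992. The members, the pathway lists and the tests were chosen with earlier results of these data known, so no count over them is independent evidence. Besides the members, the genes named are, per list and comparison with vehicle, the 2 largest differences each way that passed with no overlap of libraries, and 10 partners taken whatever their values (ALOX5AP, PTGES2, PTGES3, HPGD, PTGER4, PTGER2, PLA2G4A, CYB5R3, PEBP1 and ACSL4). FAM213B was matched as PRXL2B through RefSeq synonyms. Alternatives were DESeq2 1.42.0, upper-quartile normalization, quantile normalization with limma 3.58.1, no filter, a model of just the pair of conditions at issue, a block for replicate number, removal of each library in turn, an unadjusted p and a 2-fold minimum. Promoter windows were taken from RefSeq (GRCh38.p14). Plots used matplotlib 3.10.9 under Python 3.11.15.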

Additional observations from a re-analysis of the deposited data

How the results depend on the processing

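Of 408 values for single members set against the main fit, 366 kept their direction and their side of the threshold, 34 lost a call, 5 gained one and 3 changed sign. These include the unadjusted p and the 2-fold minimum, which reuse the values of the main fit with another threshold. Some calls, such as POR and PTGES in erastin-R, were lost only by the 2-fold minimum. For the other named genes the numbers were 1014, 85, 13 and 9 of 1121. A 2-fold minimum left 1 member in erastin-R, 2 in RSL3-R and 3 between the survivor conditions, and 5, 9 and 5 pathway genes. It left 13.4%, 10.1% and 10.3% of all genes tested. In RSL3-R cells 3 members passed with quantile normalization. Of all genes tested, 3926 were then higher and 3903 lower, against 3850 and 4029 in the main fit. Leaving out 1 library gave 4 to 6, 3 to 9 and 5 to 5 members, and 27 to 30, 30 to 39 and 25 to 33 pathway genes, in erastin-R, RSL3-R and between them. The share of all genes passing without each library is not given, so these ranges describe the counts only.

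The sign changes were all of values that had not passed. In erastin-R cells PTGES2 became -0.026 with upper-quartile and -0.040 with quantile normalization, and over the removals of 1 library PTGES2 ran from -0.071 to 0.150, PEBP1 from -0.077 to 0.029 and CYB5R3 from -0.154 to 0.0033. In RSL3-R cells TBXAS1 ran from -0.089 to 0.018. Between the survivor conditions ALOX12 became -0.058 with quantile normalization and ran from -0.113 to 0.221. The cause was not tested. Upper-quartile normalization moved the median of all genes by 0.101 between the survivor conditions, where 58.9% of calls were then higher in RSL3-R against 45.4% with TMM.

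Libraries share only a replicate number: the deviations of same-numbered libraries from their condition means correlated at -0.0904 to 0.0518 over 9 pairs. With the replicate block, 4 members passed in erastin-R, 4 in RSL3-R (CYB5R1 and PTGS1 no longer passed, adjusted p = 0.0501 and 0.0563) and 5 between them, and 29, 36 and 28 pathway genes passed. The share of all genes passing with the block is not given.

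Low counts limit ALOX15, ALOXE3, PTGS1, ALOX5, ALOX5AP and DPEP1, where a few reads decide a level. The same limit holds for SLCO2A1, HPGD, PTGER2, TBXA2R and CYP2S1 in the survivor conditions and for PLA2G4C in erastin-R cells.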
